A study of Strongylocentrotus purpuratus with 2 samples.

Results

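Wide solitary Alx1 peaks are regions of DNA recovered with an antibody against Alx1 that are long for this list and stand apart from other called regions. They were selected on 2 measured values, a width of 300 bp or more and a summit position: the summit is the position of highest enrichment, and it had no other summit within 5 kb on the same scaffold. Of 2906 peaks in the list, 430 met both conditions, on 347 of the 1263 scaffolds that carried a peak. They are set beside the 2021 solitary peaks under 300 bp, so that 430 of 2451 solitary peaks were wide.

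The chromatin was from whole Strongylocentrotus purpuratus (purple sea urchin) embryos, which were mesenchyme blastulae 24 hours old, grown in 3 cultures per the series' design text. The ChIP library was made with a custom Sp-Alx1 antibody, and the mock library with normal rabbit IgG, and each is 1 pool. No genotype, agent or manipulation of the embryos is given in the labels. With 2 libraries and no replicate, every value below describes those libraries alone. Skeletogenic cells are a part of the whole embryo, so a site bound in few cells and a site bound weakly in many cannot be told apart. The total depth of the libraries is unknown, since library totals were not used here.

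Alx1 is a homeodomain transcription factor of the sea urchin's skeletogenic cells, the primary mesenchyme, which leave the vegetal epithelium at about this stage and later secrete the larval endoskeleton. Without it these cells do not take on their fate. Homeodomain proteins read short AT-rich sequences, and paired-class members such as Alx1 can bind DNA as dimers. In ChIP-seq, protein held at a point gives a mound of DNA fragments that overlap there, and protein held at several neighbouring points gives a longer mound.

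The selection used measured values. Width and summit position come from the same comparison of ChIP with mock as the fold enrichment, the p and q values and the fragment numbers derived from them. More fragments over a position also tend to push more bases past the calling threshold. The figures for wide and narrower peaks are therefore descriptions set side by side, and no test was made between them. The fold enrichment, −log10 p and −log10 q of each peak are the authors' deposited values throughout. Positions are counted from 1 along the authors' scaffolds, which belong to a build not given in the sources used here. Genes and sequence at the peaks were not analysed here.

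The wide solitary peaks had a median width of 353.5 bp, with quartiles of 322 and 406.5 bp, and the longest measured 697 bp. Their narrower counterparts had a median width of 210 bp, with quartiles of 192 and 237 bp. Width fell off smoothly through the limit of 300 bp, with no gap that would set the wide peaks apart as a class. Just inside it, 19 peaks were under 305 bp wide, with a median fold of 3.22 and a median of 23 ChIP fragments on the summit. Just outside it, 27 solitary peaks were at least 295 bp wide, with a median fold of 3.84 and a median of 21 fragments. Of the 430 peaks, 200 were under 350 bp, 112 were from 350 to under 400 bp, 89 from 400 to under 500 bp and 29 were 500 bp or more.

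**Figure D1:**
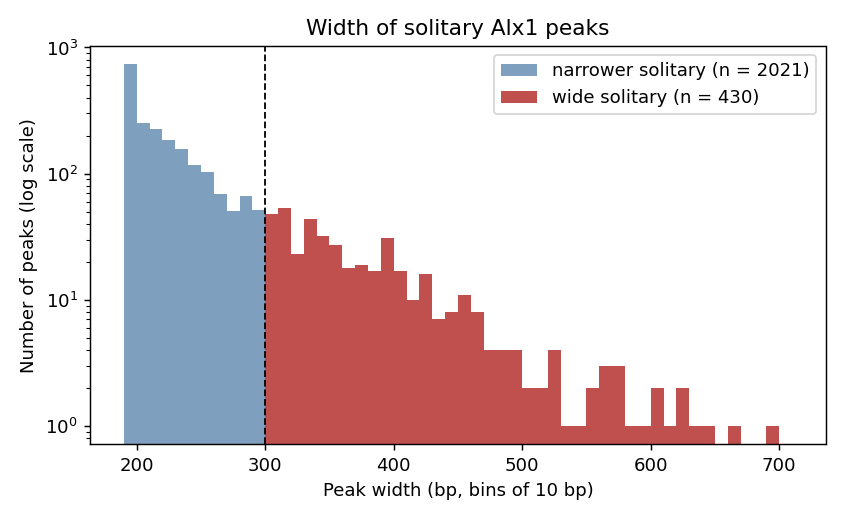
Number of solitary Alx1 peaks (log scale) by width in bins of 10 bp, with the 430 wide peaks in red and the 2021 narrower peaks in blue. The counts decline without a break across the dashed line at 300 bp and reach 697 bp.

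The wide peaks were more strongly enriched in their upper range and much like the narrower ones in their lower range. Fold enrichment, the level of ChIP over the local mock level at the summit, had a median of 3.55 in the wide peaks. Its quartiles were 2.96 and 4.59, and it ran from 1.67 to 12.9. In the narrower peaks the median was 3.32, the quartiles were 2.88 and 3.86, and the highest fold was 9.30. The 2 groups overlap over most of their extent, and the lower quartiles nearly coincide. The median −log10 p was 6.95 in the wide and 5.08 in the narrower peaks.

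A q of at most 0.05 was held by 331 wide peaks (77.0%) and by 1205 narrower peaks (59.6%), where 64.8% of all 2906 peaks had one. A fold of at least 5 was reached by 85 wide peaks (19.8%) and by 104 narrower peaks (5.15%), where 8.50% of all peaks reached it. Since the width rule draws on the same contrast, nothing is read from these shares beyond the counts. The 99 wide peaks with a q above 0.05 had a median fold of 2.66 and a median of 13 ChIP fragments, and none had more than 54 fragments.

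The strongest solitary sites by fold and by ChIP fragments were mostly wide, whereas 430 of all 2451 solitary peaks were. Of the 10 solitary peaks with the highest fold 9 were wide, of the first 50 there were 30, and of the first 100 there were 53. Ranked by ChIP fragments on the summit, all of the first 10 solitary peaks were wide, and so were 41 of the first 50 and 54 of the first 100. Ranked by the ratio of ChIP to mock without the pseudocount, 8 of the first 10 were wide, as were 25 of the first 50 and 49 of the first 100. Among solitary peaks with a fold of 7 or more, 25 of 34 were wide. Between folds of 3 and 4, the class with the most solitary peaks, 158 of 1150 were wide (13.7%), and under 3-fold 112 of 736 were (15.2%).

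Fragment numbers were solved from the deposited fold and p of each peak. The wide peaks had a median of 25 ChIP fragments on the summit, with quartiles of 16 and 35, from 8 up to 169. The narrower peaks had a median of 16, with quartiles of 12 and 25, from 7 up to 128. At 25 fragments the exact 95% Poisson interval runs from 16.2 to 36.9, so most single members could not be ranked by count at this depth. Within the wide peaks, width and fragment number were only loosely related (Spearman rho 0.22 over 430 peaks, which share both libraries and a lower limit on width).

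**Figure D2:**
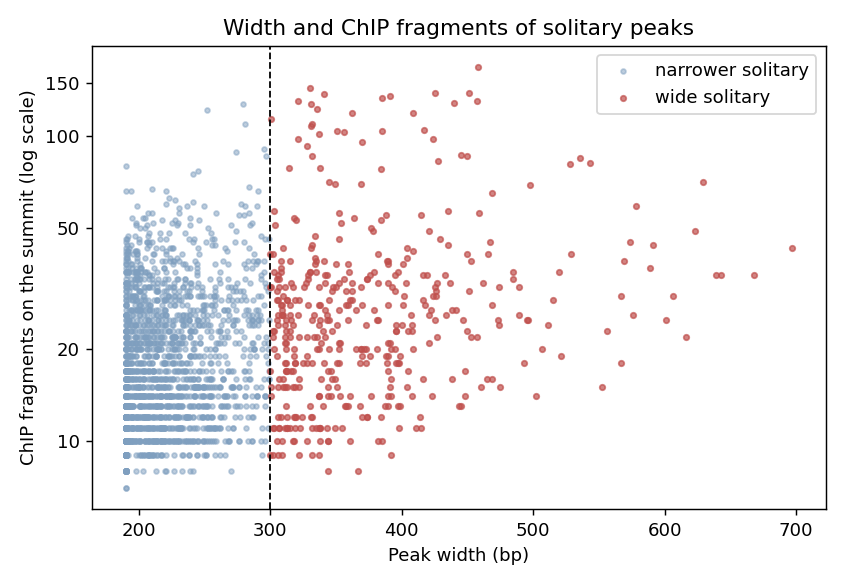
ChIP fragments on the summit (log scale) against peak width in bp for each solitary peak, wide in red and narrower in blue, with the dashed line at 300 bp. Nearly all solitary summits with 100 or more fragments lie to the right of the line (22 wide, 3 narrower), whereas summits with 35 fragments occur in peaks of up to 668 bp.

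The share of solitary peaks that were wide differed most between the top class of fragment numbers and all others. It was 8.17% among the 514 solitary peaks with 7 to 11 fragments and 10.4% among the 752 with 12 to 17. It was 19.7% of 442 peaks with 18 to 24 fragments and 26.7% of 535 with 25 to 39. From 40 to 79 fragments the share was 28.0% of 168, and at 80 or more it was 82.5% of 40. Width thus covered a broad range at every class below 80 fragments, and 7 of the 40 summits above it were narrower than 300 bp.

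**Figure D3:**
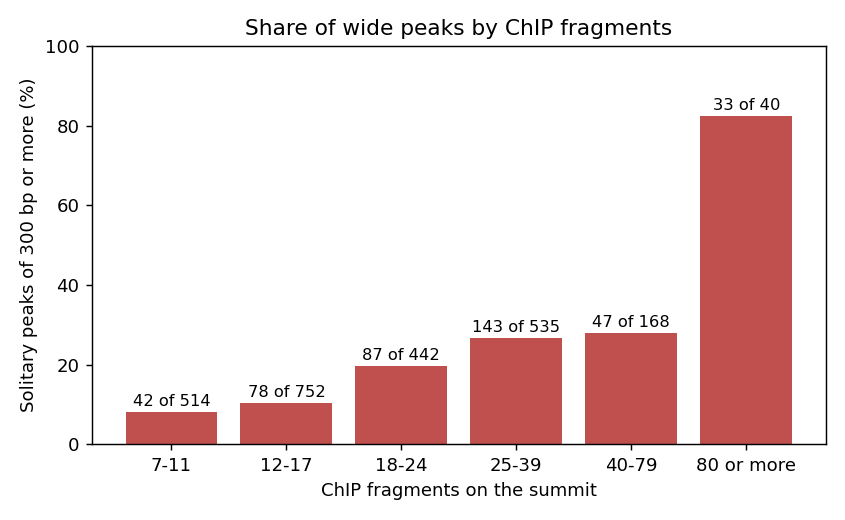
Percentage of solitary peaks that were 300 bp or more wide in each class of ChIP fragments on the summit, with the number of wide peaks and of all solitary peaks above each bar. The share is 8.17% in the lowest class, 28.0% at 40 to 79 fragments and 82.5% at 80 or more.

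At like fragment numbers the gap in median fold between wide and narrower peaks varied by class. With 7 to 11 fragments the median fold was 3.22 in wide and 3.25 in narrower peaks. Folds in that class ran only from 2.44 to 3.86 in wide and from 2.38 to 3.86 in narrower peaks, which left little room for a gap. The median fold was 3.74 and 3.51 with 12 to 17 fragments, and 3.45 and 3.27 with 18 to 24, gaps near that of the whole set. With 25 to 39 fragments it was 3.40 and 3.38, on a median mock background of 7 fragments in both. With 40 to 79 fragments it was 4.39 in wide and 3.02 in narrower peaks. At 80 or more it was 6.58 over 33 wide and 3.84 over only 7 narrower peaks. That class has no upper limit, and its median ChIP counts were 108 in wide and 91 in narrower peaks, so counts were not alike there. The median mock backgrounds in the top class were 15 fragments at the wide and 22 at the narrower peaks, and mock is the denominator of the fold.

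The 22 wide solitary peaks with 100 or more ChIP fragments form the top of the list by fragment number, 22 of the 29 such peaks in the series. Their folds ran from 3.73 to 12.9 with a median of 6.67. Of the 22, 18 had a fold of at least 5, where 8.50% of all peaks had one. Their median width was 359 bp and the widest measured 458 bp, so the tallest members were not the widest. All 22 stood on 8 or more mock fragments, where 17.7% of all peaks did, and the median of the 22 was 17. The ratio of ChIP, scaled to the mock library, to mock had an exact 95% interval whose lower bound was at least 2 in all 22. Of all peaks 29.2% had such a bound. The ChIP count by which the 22 were chosen enters this ratio and narrows its interval, so nothing further is read from that count.

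Flank lengths show how the extra width was laid out. A flank is the number of bases from the summit to an edge of the peak. The mock values match reads extended to fragments of 190 bp, which is also the width of the narrowest peaks, so a fragment over the summit reaches at most 189 bp to either side. A flank of 190 bp or more therefore contains bases recovered by fragments that do not cover the summit. At least 1 such flank was found in 288 of the 430 wide peaks (67.0%), where 14.6% of all peaks had one, and in 55 narrower peaks (2.72%). The width limit fixes much of this: the 166 wide peaks of 380 bp or more must have such a flank, and no peak of 300 bp or more can have both flanks under 150 bp.

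The other 142 wide peaks had both flanks under 190 bp, and fragments over the summit could account for their whole length. These compact peaks were 300 to 377 bp wide, with a median shorter flank of 151 bp and a median longer flank of 175 bp. Their median fold was 3.79 and their median ChIP count 26, against 3.52 and 25 in the 288 peaks with a long flank. A q of at most 0.05 was held by 119 of the 142 compact peaks (83.8%) and by 212 of the 288 others (73.6%), where 64.8% of all peaks had one. Median mock backgrounds were 5 and 6 fragments.

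Flanks of 190 bp or more on both sides need a width of at least 381 bp, which 264 of the 430 wide peaks did not reach. Of the 166 that did, 21 (12.7%) had both flanks that long. The median longer flank over all 430 was 236 bp and the median shorter flank 143 bp. The longer flank lay at higher coordinates in 224 peaks, at lower coordinates in 203, and in 3 the flanks were equal. Summits stood at a median of 49.2% of the width and lay within the middle 50% of it in 343 peaks (79.8%), against 77.2% of the narrower peaks.

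**Figure D4:**
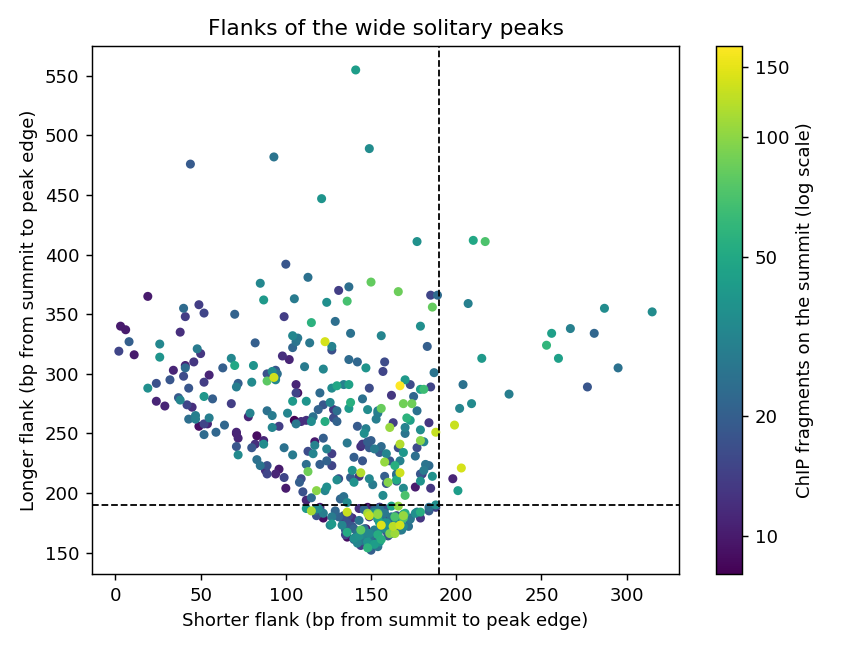
Longer against shorter flank, in bp from summit to peak edge, for each of the 430 wide solitary peaks, coloured by ChIP fragments on the summit (log scale), with dashed lines at 190 bp. Peaks with many fragments cluster at shorter flanks near 160 bp, the 21 peaks right of the vertical line have both flanks of 190 bp or more, and no peak with a shorter flank under 50 bp has more than 39 fragments.

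Within the wide set the shorter flank, and not the longer, went with the height of the peak. Across the 430 wide peaks the Spearman correlation of ChIP fragments was 0.31 with the shorter flank and 0.01 with the longer. For fold it was 0.30 with the shorter flank and -0.15 with the longer. In a wide peak the sum of both flanks is set to be at least 299 bp. Over all 2451 solitary peaks, without that limit, the correlation of ChIP fragments was 0.32 with the shorter flank and 0.15 with the longer. For fold the values there were 0.30 and -0.01. Both flanks belong to the same peak, and the correlations are given as descriptions. At the 22 wide peaks with 100 or more fragments the median shorter flank was 162 bp, whereas at the 99 wide peaks with a q above 0.05 it was 106 bp.

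At the far end of this range, 33 wide peaks had a summit within 50 bp of an edge. Their median fold was 2.78, their median ChIP count 16, and 11 of them had a q of at most 0.05, where 64.8% of all peaks had one. The 7 with the summit within 20 bp of an edge had folds from 2.02 to 3.25, and 0 of them had a q of at most 0.05. The most extreme lay on Scaffold151 at 358072 to 358393, where the summit stood 2 bp from the right edge with 15 ChIP on 6 mock fragments.

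The peaks with the highest folds were of moderate width, with shorter flanks between 152 and 181 bp. First was Scaffold180 at 327556 to 327940, 385 bp wide, with flanks of 217 and 167 bp (left and right), a fold of 12.9 and 134 ChIP fragments. Scaffold1191 at 3194 to 3538 had flanks of 180 and 164 bp, a fold of 12.6 and 71 fragments. Scaffold21 at 855952 to 856303 had flanks of 182 and 169 bp, a fold of 12.4 and 56 fragments. All 3 shapes are near the reach of single fragments over the summit, with only the left flank on Scaffold180 going past it.

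Scaffold127 at 175744 to 176131 had a left flank of 223 bp and a fold of 10.7 on 55 ChIP fragments. Scaffold2283 at 44828 to 45183 had flanks of 189 and 166 bp and a fold of 10.1 on 103 fragments. Scaffold4370 at 8542 to 8851, the only peak on its scaffold, had flanks of 152 and 157 bp and a fold of 9.67 on 43 fragments. These 3 again had no flank over 223 bp.

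Scaffold38 at 995823 to 996246 had flanks of 244 and 179 bp and a fold of 9.65 on 98 fragments. Scaffold113 at 1129957 to 1130287 had flanks of 166 and 164 bp and a fold of 9.56 on 108 fragments. Scaffold175 at 23845 to 24245 reached a fold of 8.80 with only 28 ChIP fragments (95% Poisson interval 18.6 to 40.5), on a mock background of 1.90. Over these and Scaffold69 at 165555 to 165963, with a fold of 8.77 and 119 fragments, the first 10 by fold had a median width of 370.5 bp, a median shorter flank of 166.5 bp and a median mock background of 6 fragments.

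The widest peaks were a different set, and most were low. None of the 10 widest was among the 10 with the highest fold. Their median fold was 2.76, their median ChIP count 35 and their median mock background 11.5 fragments. The widest lay on Scaffold284 at 287569 to 288265, 697 bp long, with a fold of 2.97 on 43 ChIP and 12 mock fragments. Scaled ChIP over mock gave a ratio of 3.14 (exact 95% interval 1.63 to 6.54), and its right flank of 555 bp was the longest of any member.

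Next were Scaffold558 at 341811 to 342478, with a fold of 2.44, and Scaffold3132 at 24580 to 25222, with a fold of 2.64. Both had long flanks on each side, 352 and 315 bp on Scaffold558 and 355 and 287 bp on Scaffold3132. Scaffold554 at 200649 to 201287 had its length on the left, with flanks of 489 and 149 bp and a fold of 2.88. All 3 summits were covered by 35 ChIP fragments, and the lower bounds of their ratios lay between 1.29 and 1.49.

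Among the 10 widest, 3 peaks had folds above 4, on both high and low fragment numbers. Scaffold57 at 1549297 to 1549925, 629 bp wide, had a fold of 4.51 on 71 ChIP and 13 mock fragments. Scaffold1063 at 362679 to 363294 had a fold of 5.45 on 22 ChIP fragments, and its mock background of 2.72 matched the 10 kb average. Scaffold395 at 78101 to 78701 had a fold of 5.72 on 25 ChIP and 3 mock fragments, with nearly equal flanks of 295 and 305 bp. Its ratio of 7.30 has an interval of 2.23 to 37.8, because so few mock fragments were counted.

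The remaining 3 of the 10 widest had folds under 3. They were Scaffold333 at 205200 to 205822 with a fold of 1.83, Scaffold77 at 1064525 to 1065130 with 2.27, and Scaffold2125 at 408 to 998, close to the start of its scaffold, with 2.64. The third longest flank, 482 bp, belonged to a peak outside this set, on Scaffold256 at 168125 to 168700, with a fold of 3.40 and a left flank of only 93 bp.

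Fold changed little with width inside the wide set. The median fold was 3.52 under 350 bp, 3.52 from 350 to under 400 bp, 3.77 from 400 to under 500 bp and 3.53 at 500 bp or more. The highest fold was 12.6 and 12.9 among the 200 and 112 peaks of the first 2 classes. It was 9.65 and 6.62 among the 89 and 29 of the last 2, and a highest value tends to be lower among fewer peaks. Median ChIP fragments were 22, 23.5, 29 and 35 over the same classes. Median mock backgrounds were 5, 4.75, 6 and 8 fragments, so ChIP and mock were both higher in the widest class and the fold was not.

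The 21 peaks with both flanks of 190 bp or more were 404 to 668 bp wide. Their median fold was 3.90, with a range of 1.83 to 6.43, and 7 of them had a fold of at least 5, where 8.50% of all peaks had one. The tallest were Scaffold2097 at 74892 to 75316, with 139 ChIP fragments and a fold of 5.58, and Scaffold69 at 103545 to 104001, with 131 fragments and a fold of 6.43. Mock fragments were also high here: 13 of the 21 stood on 8 or more, where 17.7% of all peaks did, and the median was 11. Their ChIP counts were high too, with a median of 35, against 25 in all wide solitary peaks.

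Mock fragments were more numerous at wide peaks than at narrower ones over the whole set and at like folds, but not at like ChIP counts. The mock background had a median of 5 fragments at the wide and 3.10 at the narrower peaks, and it cannot fall below 1.76, the level over the whole genome. A background of at least 8 was found at 125 wide peaks (29.1%) and 289 narrower peaks (14.3%), where 17.7% of all peaks had one. In none of the 6 classes of ChIP fragments was the median mock higher at the wide peaks: it was 2 in both groups with 7 to 11 ChIP fragments, 4.37 at wide and 5 at narrower peaks with 18 to 24, and 11 and 13.1 with 40 to 79. At like folds, where by construction a higher mock goes with a higher ChIP count, the median mock was higher at the wide peaks in every class. Under 3-fold it was 8 at wide and 6 at narrower peaks, and from 3 to under 4 it was 4.37 and 2.86. It was 5 and 2.96 from 4 to under 5, 3.38 and 3.04 from 5 to under 7, and 8 and 3 at 7 or more. The mock value came from fragments on the summit itself at 288 wide peaks (67.0%) and 1065 narrower peaks (52.7%). It stood at the genome-wide level at 17 wide peaks (3.95%) and 183 narrower peaks (9.05%). The part of the mock signal in the width of these peaks was not tested.

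Within classes of mock background the median fold was higher in the wide than in the narrower peaks each time, with overlapping ranges. Under 2 mock fragments it was 4.33 over 24 wide and 3.54 over 268 narrower peaks. From 2 to under 4 it was 3.84 and 3.49, from 4 to under 8 it was 3.49 and 3.18, and from 8 to under 16 it was 2.90 and 2.73. At 16 or more it was 3.89 over 26 wide and 2.20 over 51 narrower peaks, and there the folds of the wide peaks ran from 1.67 to 7.06. A higher mock asks for more ChIP fragments before a peak is called, in wide and narrow peaks alike. Fold is computed from ChIP and mock alone. At like mock, the higher folds of the wide peaks thus largely restate their higher ChIP counts and are no separate result.

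**Figure D5:**
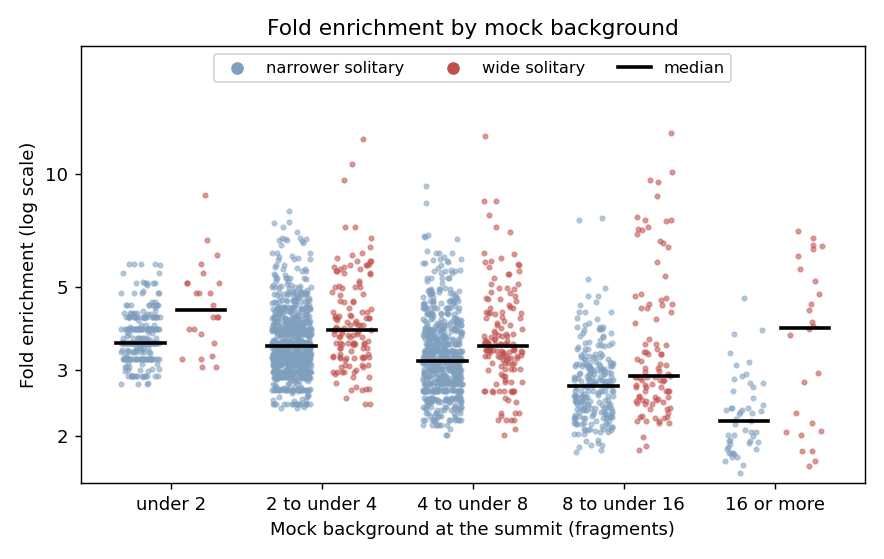
Fold enrichment (log scale) of each solitary peak by class of mock background at the summit, narrower peaks in blue and wide peaks in red, with black lines at the medians. The medians differ least at 8 to under 16 mock fragments (2.90 against 2.73) and most at 16 or more (3.89 against 2.20), where the wide peaks spread from 1.67 to 7.06.

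The members with the most mock fragments held both strong and weak sites. Scaffold190 at 894758 to 895078 had the highest mock, 30 fragments, against 131 ChIP fragments, a fold of 3.73 and a ratio interval of 2.56 to 5.89. Scaffold511 at 34490 to 34817 had 27 mock and 93 ChIP fragments and a fold of 2.95. Scaffold1072 at 57808 to 58171 had 28 mock and 54 ChIP fragments, and its fold of 1.67 was the lowest of all 430. Of the 26 wide peaks with a mock background of 16 or more, 15 had a lower bound of the ratio of at least 2. A q of at most 0.05 was held by 19 of the 26. Over all peaks the shares were 29.2% and 64.8%.

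The peaks with the lowest folds after Scaffold1072 were also mostly on high mock. They were Scaffold2382 at 6981 to 7357, with 50 ChIP on 25 mock fragments and a fold of 1.72, and Scaffold114 at 775015 to 775392, with 49 on 23 and a fold of 1.83. Scaffold333 had those same counts and fold. Scaffold179 at 504730 to 505031 had 22 on 10 and a fold of 1.84. The ratio intervals of the first 4 began between 1.05 and 1.12, and that of Scaffold179 ran from 0.876 to 4.56, so more ChIP than mock could not be told there at this depth. Scaffold179 was not alone in this: of the 413 wide peaks with a ratio interval, 387 had a lower bound above 1. Over all peaks it was 2410 of 2691.

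The most ChIP fragments of any member, 169 (95% Poisson interval 144 to 196), lay on Scaffold945 at 97906 to 98363, with flanks of 167 and 290 bp. Scaffold3128 at 13602 to 13931 followed with 144 fragments, a fold of 7.06 and flanks of 156 and 173 bp, and it was the only peak on its scaffold. Scaffold95 at 994029 to 994479 had 139 fragments, a fold of 7.67 and its length on the right, with flanks of 123 and 327 bp. Scaffold2097, among the peaks long on both sides, also had 139. Scaffold21 at 222185 to 222525 had 138 fragments, a fold of 6.77 and flanks of 167 and 173 bp. Because the intervals of these counts overlap, their order could not be told.

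Over the whole set, 175 of the 430 wide peaks (40.7%) had a lower bound of the ratio of at least 2, against 512 of the 2021 narrower peaks (25.3%), where 29.2% of all peaks had one. No ratio interval was made for the 17 wide and 183 narrower peaks at the genome-wide mock level, which count here as not reaching it. The median ratio itself was 4.26 at the wide and 4.14 at the narrower peaks. The wide peaks thus differed in fragment numbers, and so in precision. Their typical ratio cannot be compared in the same way, since a peak with few fragments is listed only at a high ratio. With 7 to 11 ChIP fragments the lowest ratio was 2.92 in both groups. With 40 to 79 it was 1.69 in wide and 1.62 in narrower peaks. The close medians are therefore not read as like enrichment.

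Wide solitary peaks mostly stood 1 to a scaffold. The rule leaves out close peaks, and there were 430 wide solitary peaks for 1263 scaffolds with a peak. On 285 of their 347 scaffolds there was 1 such peak, on 47 there were 2, on 12 there were 3, and 1 scaffold each held 4, 5 and 6. Scaffold198 held 6 among 13 peaks, over 683 kb, with folds from 2.64 to 8.50. Scaffold5 held 5 among 14 peaks, with folds from 3.27 to 4.999. All 3 peaks of Scaffold1239 were wide and solitary, within 27.1 kb, with folds of 3.40, 3.23 and 4.15. The first 2 of them, at 37512 to 37826 and 43328 to 43638, had summits 5.79 kb apart, the closest pair of members.

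The nearest other summit lay at a median of 52.3 kb for the 333 wide peaks whose scaffold held another peak, with quartiles of 16.4 and 116 kb. For the 1482 such narrower peaks the median was 57.5 kb, with quartiles of 20.7 and 142 kb. With a limit of 10 kb in place of 5 kb for solitary peaks this order turned, with medians of 76.6 kb for wide and 69.7 kb for narrower peaks. The nearest summit was within 20 kb for 94 of the 333 (28.2%) and for 365 of the 1482 (24.6%). That neighbour was itself 300 bp or more wide for 72 of the 333 (21.6%) and for 282 of the 1482 (19.0%), where 18.4% of all peaks were. The remaining 97 wide peaks (22.6%) and 539 narrower peaks (26.7%) were alone on their scaffolds. Scaffold lengths were not used here, so lone peaks and short scaffolds cannot be told apart.

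Wide peaks that had another summit within 5 kb, 106 in all, were of like width, with a median of 365 bp. Their median fold was 4.13 and their median ChIP count 27, against 3.55 and 25 in the wide solitary peaks. A q of at most 0.05 was held by 86.8% of them and a fold of at least 5 by 29.2%, against 77.0% and 19.8%. A lower bound of the ratio of at least 2 was held by 50%, against 40.7%. A flank of 190 bp or more was found in 63.2%, against 67.0%. These traits were therefore not particular to wide peaks that were solitary. The 445 solitary peaks at the minimum width of 190 bp stood at the other end, with a median of 12 ChIP fragments, a median fold of 3.25 and a median mock background of 2.28. A q of at most 0.05 was held by 161 of them (36.2%), and 4 reached a fold of 5, where 64.8% and 8.50% of all peaks did. Their median ratio was 4.19, against 4.26 in the wide solitary peaks. Peaks with so few fragments are listed only at a high ratio, so no like enrichment is read from this.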

How the data were processed

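The authors compared 1 pooled ChIP library with 1 pooled mock library. The submitters' processing notes list Trimmomatic, Bowtie2, SAMtools and MACS2, with neither versions nor settings. Deposited per peak are the fold (a ratio with a pseudocount of 1), −log10 p, −log10 q, summit offset in bp, and a score that repeats the −log10 p and was not used. The largest p is 0.00498.

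ChIP and mock fragments were solved from fold, taken as (scaled ChIP + 1) / (mock + 1), and p, taken as the upper Poisson tail, as MACS2 is known to compute them; the labels do not state it. The scale fitted on 300 peaks was 0.876. The misfit in −log10 p was at most 3.72e-05, against at least 0.000231 for the next-best whole number. All 2906 mock values matched, within 0.0003, whole fragments on the summit, steps of a 1 kb or 10 kb average of 190 bp fragments, or the level over the whole genome, and were put on that step. Of 1000 summits simulated with the same formulas, 100% were recovered, which checks the solving and not the formulas.

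Poisson intervals (ChIP) and Clopper-Pearson intervals given the sum of both counts (ratios) are exact, 95%, and cover counting error only, not the choice of a maximum. Peaks were named by rule: the 10 highest folds, 10 widest, 5 with most ChIP fragments, 5 lowest folds, 3 highest mock values and 3 longest flanks. Others named were chosen after their values were seen. Members and lists were chosen with earlier results of these data known. The RefSeq gene table at hand (Spur_5.0) names 0 of the scaffolds with a peak. Python 3.11.15, pandas 2.3.3, NumPy 2.4.6, SciPy 1.17.1 and matplotlib 3.10.9 were used.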

Additional observations from a re-analysis of the deposited data

How the results depend on the processing

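Of 41 values recomputed under 6 alternatives, 27 stayed within the counting or rank interval of the reported value, or within 1.5 times for the number of peaks. The intervals treat peaks of the same 2 libraries as separate observations, and all alternatives draw on the same list of peaks. The tally therefore measures no spread between libraries. The alternatives differ in which peaks they keep, by construction, and no other cause was tested. The number of wide solitary peaks was 430 and became 772 at a minimum width of 250 bp and 118 at 400 bp. The median fold of 3.55 was 3.95 among peaks with a q of at most 0.05, 3.76 at 400 bp and 3.39 where the mock background lay on the summit itself. It was above that of the narrower peaks under all 6. The share with a q of at most 0.05 was 86.4% at 400 bp. Median ChIP fragments were 28 at a q of at most 0.05, 30 at 400 bp and 28.5 with mock on the summit, and the median mock was 4.56 at 250 bp. The share with a flank of 190 bp or more was 42.2% at 250 bp and, by construction, 100% at 400 bp. The median distance to the nearest summit, 52.3 kb, was 40.6 kb when summits had to be over 2 kb apart and 76.6 kb when over 10 kb apart. In the last case the narrower peaks, at 69.7 kb, were the nearer to a neighbour, so the order of wide and narrower peaks by this distance turned with the limit. Distances were measured in the full list throughout. No paired analysis was possible because there was a lone pool per antibody, which also leaves nothing to omit. Depth limits how single peaks can be ranked.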
